A study of Mus musculus with 16 samples.

Results

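The 10 genes described here encode receptors, co-receptors and an adaptor through which intestinal epithelial cells sense microbial products. They were chosen by name, with earlier results of these data known. Tlr2, Tlr3, Tlr4 and Tlr5 are Toll-like receptors, Ly96 and Cd14 are co-receptors for lipopolysaccharide, Myd88 is the shared adaptor, and Nod1, Nod2 and Nlrp6 are cytosolic receptors of the NOD-like family. They are 10 of the 49585 genes in the count table, and 8 of them were among the 12559 genes with enough counts to be tested. Tlr4 and Tlr5 had too few counts for the test and are given as counts.

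Toll-like receptors at the cell surface bind bacterial lipoproteins (TLR2), lipopolysaccharide (TLR4 with the Ly96 product MD-2 and with CD14) or flagellin (TLR5), and most of them pass the signal through MYD88 to NF-κB. TLR3 lies in endosomes, binds double-stranded RNA, typically of viruses, and signals through the adaptor TRIF instead. NOD1 and NOD2 detect fragments of the bacterial cell wall inside the cell and signal through the kinase RIPK2, and NLRP6 is abundant in intestinal epithelium, where it has been linked to mucus secretion and antimicrobial defense.

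Small intestinal organoids were grown from crypts of Atg16l1 ΔIEC mice (villin-cre+; Atg16l1 fl/fl, with the autophagy gene Atg16l1 deleted in intestinal epithelial cells) and of cre-negative Atg16l1 fl/fl controls, on a C57BL/6 background and 8 to 12 wk old. They were kept in Matrigel with a medium containing EGF, Noggin and R-spondin, and either left untreated or given IL-22 at 10 ng/ml for 24 h. RNA was sequenced from 16 cultures, 4 in each of the 4 groups. The fl/fl cultures came from organoid lines 1293 (replicates 1 and 2 of each group) and 1294 (replicates 3 and 4), and the ΔIEC cultures from lines 1290 (replicates 1 and 2) and 1292 (replicates 3 and 4). An n of 4 therefore counts cultures, of only 2 lines. The p-values measure the spread between cultures, and a difference between genotypes cannot be told apart from a difference between their lines. Reads on genes numbered from 2135000 to 5574860 in a culture. A single count was worth 0.188 to 0.453 CPM (counts scaled to library size), the unit used below for 1 gene across cultures.

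The deleted gene followed the labels. Atg16l1 had 39.2 to 51.8 CPM with IL-22 and 31.6 to 49.2 CPM in untreated fl/fl cultures. In ΔIEC cultures it had 1.21 to 4.15 CPM untreated and 0.289 to 5.96 CPM with IL-22, all of them lower than in any fl/fl culture (log2 difference -3.90 untreated and -4.51 with IL-22, edgeR adjusted p = 1.27e-06 and 2.25e-07). The cultures carried the markers of epithelium, with Krt8 at 2983 CPM on average and all 7 epithelial markers tested. Of 9 stromal markers, Dcn and Cdh5 were at 0 in every culture and 8 had at most 3 counts in any culture. Among the immune markers, Cd3e, Itgax and S100a8 were at 0 in every culture, and 7 of 12 had at most 3 counts in any culture.

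Per kilobase of exon, the receptor genes spanned a wide range of levels. In untreated fl/fl organoids Nlrp6 was the most abundant at 198 ± 18.4 TPM (transcripts scaled to exon length and library size; mean ± SD, n = 4), followed by Myd88 at 18.2 ± 2.96 TPM on average. Cd14 (11.5 ± 2.39 TPM), Tlr3 (11.1 ± 1.01 TPM) and Ly96 (10.6 ± 4.47 TPM) overlapped one another, and Ly96 in replicate 3 (17.1 TPM) was above Myd88 in replicates 1 and 2 (15.1 and 16.3 TPM). Nod1 had 4.92 ± 0.618 TPM, Nod2 1.88 ± 0.511 TPM and Tlr2 1.41 ± 0.831 TPM, and the last 2 overlapped. Tlr5 (0.724 ± 0.240 TPM) overlapped Tlr2, and Tlr4 was lowest at 0.156 ± 0.115 TPM. In IL-22–treated ΔIEC organoids the distance between the first members was smaller, with Nlrp6 at 95.4 ± 9.48 TPM, Myd88 at 51.4 ± 7.38 TPM and Cd14 at 35.5 ± 3.27 TPM. These 3 did not overlap one another. Tlr2 had 5.46 ± 0.911 TPM there and Tlr5 was lowest at 0.0855 ± 0.0988 TPM.

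IL-22 raised Cd14 and Myd88 and lowered Nlrp6 in both genotypes. Tlr3 was called lower in fl/fl organoids, a call that held under 7 of 19 other settings. Its IL-22 effect was not shown to differ between genotypes (edgeR interaction adjusted p = 0.387). Among the 8 tested members, 2 were higher and 2 lower past an edgeR adjusted p of 0.01 with IL-22 in fl/fl organoids, beside 10.6% and 10.2% of all tested genes. In ΔIEC organoids 2 members were higher and 1 lower, beside 9.83% and 7.65% of all tested genes. Between the genotypes, 1 member (Myd88) was higher in untreated ΔIEC organoids and 0 were lower, beside 3.78% and 5.98% of all tested genes. With IL-22, 3 members (Cd14, Myd88 and Tlr2) were higher in ΔIEC and 0 were lower, beside 9.91% and 9.84%. The 0 lower calls are from edgeR. DESeq2 and limma-voom also gave 0 lower members in both genotype comparisons. By edgeR, 2 members (Nlrp6 and Tlr3) had a negative fold change with an unadjusted p under 0.05 in untreated organoids, and 0 with IL-22. In either direction, 5 and 4 of the 8 members passed that cut, beside 4293 and 5525 of the 12559 tested genes. The comparisons share groups (the untreated fl/fl cultures enter the first and the third), so their counts are not independent. In RNA from whole cultures, fewer cells of a type and less RNA per cell cannot be told apart.

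**Figure D1:**
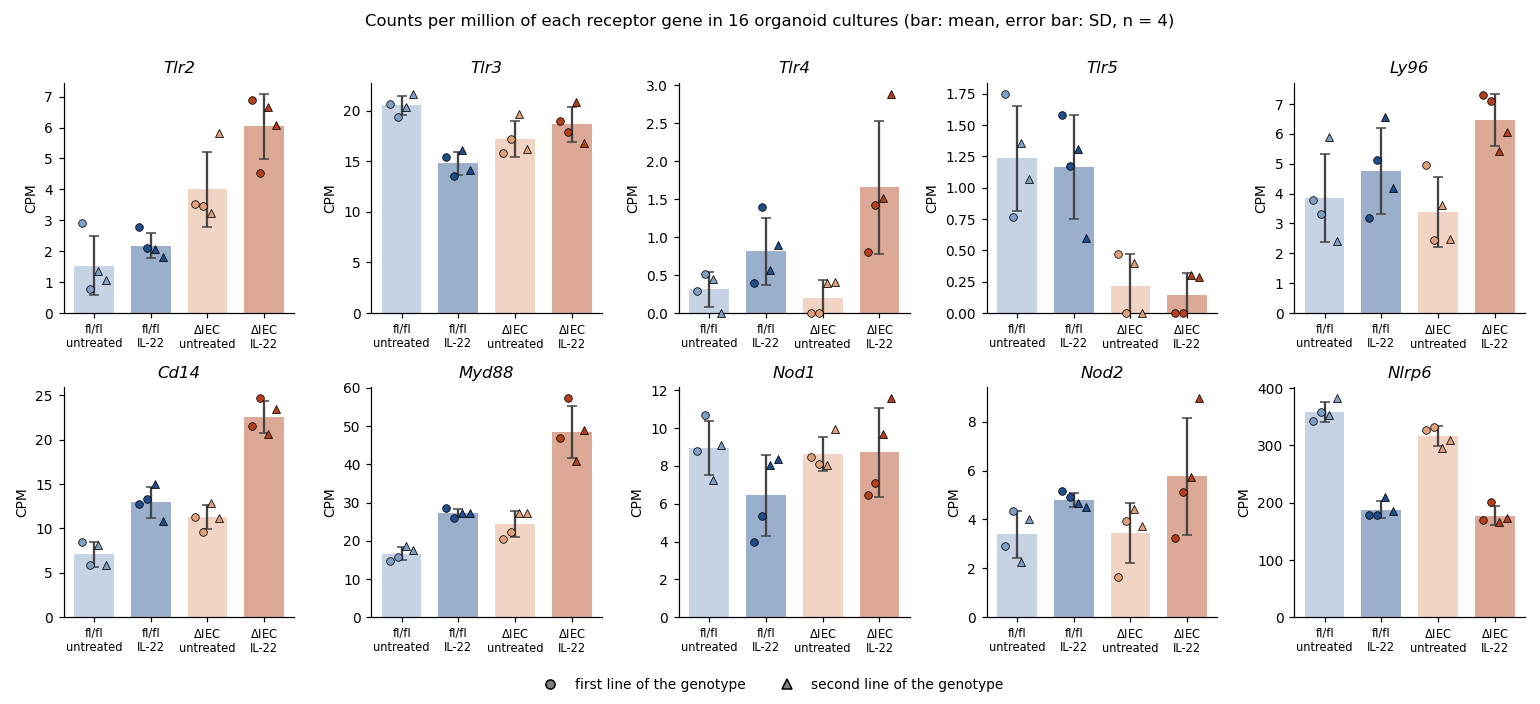
Each panel shows 1 gene, with CPM (linear axis from 0) for the 4 groups on the horizontal axis; bars are means, error bars SD (n = 4), circles the cultures of lines 1293 or 1290 and triangles those of lines 1294 or 1292. Cd14 and Myd88 are highest in all 4 IL-22–treated ΔIEC cultures, and Nlrp6 is lower in every IL-22–treated culture than in any untreated one.

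Of the Toll-like receptors tested, Tlr2 was called higher in ΔIEC organoids given IL-22. Tlr2 (ENSMUSG00000027995.10, chromosome 3, minus strand, 83836272 to 83841767 in GRCm38) had 2.92, 0.766, 1.36 and 1.07 CPM in the untreated fl/fl cultures and 2.77, 2.10, 2.06 and 1.80 CPM in those given IL-22. In ΔIEC organoids it had 3.54, 3.45, 3.22 and 5.81 CPM untreated and 6.89, 4.54, 6.65 and 6.08 CPM with IL-22. No ΔIEC culture was as low as any fl/fl culture of the same treatment, whereas untreated and treated cultures of 1 genotype overlapped. The log2 difference of ΔIEC over fl/fl was 1.47 (SE 0.31, edgeR adjusted p = 0.00145) with IL-22. In untreated organoids it was 1.35 (SE 0.37) and missed the threshold (adjusted p = 0.0132). Under 19 other settings the untreated difference ranged from 1.09 to 1.90 and passed in 2 (adjusted p-values from 0.00320 to 0.0877). Of these 2, 1 is the same fit at a looser threshold. The other left out untreated fl/fl replicate 1, the highest of its group (1.90, adjusted p = 0.00320). The IL-22 effect was 0.49 (SE 0.39, edgeR adjusted p = 0.367) in fl/fl and 0.61 (SE 0.29, adjusted p = 0.128) in ΔIEC organoids. Under 17 other settings the fl/fl effect ranged from 0.24 to 1.05 and passed in 0 of them (adjusted p-values from 0.0820 to 0.717). Counts on Tlr2 were low, from 3 to 22 per culture, and the call with IL-22 was lost on leaving out line 1290 (adjusted p = 0.0136), line 1292 (adjusted p = 0.0213) or line 1294 (adjusted p = 0.0269) and on summing each line's cultures (adjusted p = 0.0270).

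Tlr3, the receptor for double-stranded RNA, was the Toll-like receptor with the most counts. Tlr3 (ENSMUSG00000031639.12, chromosome 8, minus strand, 45395665 to 45411080) had 20.7, 19.4, 20.4 and 21.7 CPM in untreated and 15.4, 13.6, 16.1 and 14.1 CPM in treated fl/fl cultures. The treated fl/fl cultures were all below the untreated ones. In ΔIEC organoids Tlr3 had 15.8, 17.2, 19.7 and 16.2 CPM untreated and 19.0, 17.9, 20.9 and 16.8 CPM with IL-22, and these groups overlapped. The log2 change with IL-22 was -0.47 (SE 0.12, edgeR adjusted p = 0.00569) in fl/fl and 0.12 (SE 0.12, adjusted p = 0.526) in ΔIEC organoids. The fl/fl call held under 7 of 19 other settings, of which 1 is the same fit at a looser threshold and could not fail, with adjusted p-values from 0.00256 to 0.0957. It was lost, among others, with DESeq2 (adjusted p = 0.0275), with no filter on low counts (adjusted p = 0.0523), on summing each line's cultures (adjusted p = 0.0627) and on leaving out line 1293 (adjusted p = 0.0957) or line 1294 (adjusted p = 0.0870). Between the genotypes, Tlr3 differed by -0.26 (SE 0.12, adjusted p = 0.136) untreated, with overlap. With IL-22 the genotypes did not overlap, with ΔIEC higher, and the difference of 0.33 (SE 0.12) missed the threshold (adjusted p = 0.0487). The difference between the genotypes' IL-22 effects was 0.59 (SE 0.17), with an unadjusted p of 0.00299 and an adjusted p of 0.387. Gm45542, a gene on the other strand, shares 381 of the 5207 exon bases of Tlr3 and had 58 counts in all 16 cultures together.

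Tlr4, which signals the presence of lipopolysaccharide, was near the limit of detection. Tlr4 (ENSMUSG00000039005.13, chromosome 4, plus strand, 66827584 to 66930284) had 1, 2, 1 and 0 counts in untreated and 1, 6, 3 and 3 counts in IL-22–treated fl/fl cultures. The ΔIEC cultures had 0, 0, 1 and 1 counts untreated and 2, 5, 5 and 10 counts with IL-22. In CPM, each treated ΔIEC culture was above each untreated one, and the fl/fl groups overlapped. Scaled for library size, the summed counts with IL-22 (22) were 11.4 times those without (2) in ΔIEC organoids, with a 95% exact interval of 2.80 to 99.9 that covers counting error only. In fl/fl organoids (13 against 4 counts) the ratio was 2.79, with an interval of 0.862 to 11.8. With no filter on low counts, edgeR gave Tlr4 an adjusted p of 0.00326 in ΔIEC and 0.353 in fl/fl organoids, and an interaction at an adjusted p of 1.00.

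Tlr5, the flagellin receptor, was lower in ΔIEC than in fl/fl cultures at both treatments, again on few counts. Tlr5 (ENSMUSG00000079164.8, chromosome 1, plus strand, 182954788 to 182976044) had 6, 3, 3 and 4 counts in untreated and 4, 5, 7 and 2 counts in IL-22–treated fl/fl cultures. Among ΔIEC cultures the values were 2, 0, 1 and 0 counts untreated and 0, 0, 1 and 1 counts with IL-22. In CPM the genotypes did not overlap at either treatment, with ΔIEC lower. Scaled for library size, the summed counts in fl/fl were 5.30 times those in ΔIEC organoids untreated (95% exact interval 1.52 to 28.4) and 7.42 times with IL-22 (1.78 to 65.9), again with counting error only and not the spread between cultures. With no filter on low counts, the genotype difference had an edgeR adjusted p of 0.0818 untreated and 0.0308 with IL-22, so that it did not pass the threshold.

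Of the co-receptors, Cd14 rose with IL-22 in both genotypes. Cd14 (ENSMUSG00000051439.6, chromosome 18, minus strand, 36725067 to 36726798), which hands lipopolysaccharide to TLR4 and MD-2, had 8.47, 5.87, 8.16 and 5.89 CPM in untreated and 12.7, 13.3, 15.0 and 10.8 CPM in treated fl/fl cultures. Values in ΔIEC cultures were 11.3, 9.60, 12.9 and 11.2 CPM untreated and 21.5, 24.7, 20.6 and 23.4 CPM with IL-22. The groups did not overlap within a genotype or within a treatment, whereas the treated fl/fl cultures overlapped the untreated ΔIEC cultures. IL-22 raised it by 0.91 on the log2 scale (SE 0.17, edgeR adjusted p = 4.48e-04) in fl/fl and by 1.02 (SE 0.15, adjusted p = 4.48e-05) in ΔIEC organoids. ΔIEC organoids exceeded fl/fl by 0.79 (SE 0.15, adjusted p = 5.00e-04) with IL-22. The untreated difference was 0.67 (SE 0.18) and missed the threshold (adjusted p = 0.0123). The difference between the IL-22 effects was 0.11 (SE 0.24, adjusted p = 0.978). Leaving out line 1293 (log2 change 0.98, adjusted p = 0.0109) or line 1294 (0.87, adjusted p = 0.0178) ended the fl/fl call. Leaving out line 1290 ended the ΔIEC call (0.87, adjusted p = 0.0189) and the genotype call with IL-22 (0.74, adjusted p = 0.0134). With the cultures of a line summed, the fl/fl call (0.94, adjusted p = 0.0110) and the genotype call (0.78, adjusted p = 0.0201) were lost as well.

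Ly96 encodes MD-2, the subunit of the TLR4 complex that binds lipopolysaccharide. Ly96 (ENSMUSG00000025779.10, chromosome 1, plus strand, 16688051 to 16709611) had 3.80, 3.32, 5.89 and 2.41 CPM in untreated and 3.17, 5.14, 6.57 and 4.19 CPM in treated fl/fl cultures. In ΔIEC cultures it had 4.95, 2.46, 3.62 and 2.49 CPM untreated and 7.29, 7.10, 5.44 and 6.08 CPM with IL-22. The treated ΔIEC cultures were all above the untreated ones, and the fl/fl groups overlapped. The log2 difference was 0.89 (SE 0.30) in ΔIEC organoids, where it missed the threshold (edgeR adjusted p = 0.0315), and 0.43 (SE 0.30, adjusted p = 0.295) in fl/fl organoids. The genotypes overlapped at both treatments, with differences of -0.09 (adjusted p = 0.882) untreated and 0.37 (adjusted p = 0.317) with IL-22.

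Myd88, the adaptor below most Toll-like receptors and the interleukin-1 receptor family, showed the same order of groups as Cd14. Myd88 (ENSMUSG00000032508.8, chromosome 9, minus strand, 119335934 to 119341411) had 14.6, 15.8, 18.6 and 17.7 CPM in untreated and 28.5, 25.9, 27.2 and 27.3 CPM in treated fl/fl cultures. The ΔIEC cultures had 20.5, 22.4, 27.3 and 27.4 CPM untreated and 47.0, 57.4, 40.8 and 48.9 CPM with IL-22. Neither treated and untreated cultures of a genotype nor the genotypes at a given treatment overlapped, with the treated and the ΔIEC cultures higher. The fold change with IL-22 was 1.64 (log2 0.71, SE 0.13, edgeR adjusted p = 3.86e-04) in fl/fl and 2.02 (log2 1.02, SE 0.12, adjusted p = 3.47e-06) in ΔIEC organoids. ΔIEC organoids exceeded fl/fl by 0.84 (SE 0.12, adjusted p = 3.95e-05) with IL-22. The untreated difference of 0.54 (SE 0.14, adjusted p = 0.00968) was just inside the threshold and passed under 6 of 20 other settings, of which 1 is again the same fit at a looser threshold, with adjusted p-values from 0.00641 to 0.162. It was lost with DESeq2 (adjusted p = 0.0117), with a correlation within lines (adjusted p = 0.0670) and on leaving out line 1292 (adjusted p = 0.0854), line 1293 (adjusted p = 0.162) or line 1294 (adjusted p = 0.0143). The fl/fl IL-22 call was also lost without line 1293 (log2 change 0.62, adjusted p = 0.0294), whereas the ΔIEC call held under every other setting. Summing the cultures of a line ended the fl/fl call (0.71, adjusted p = 0.0266) and the genotype call with IL-22 (0.86, adjusted p = 0.0150).

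A gene on the other strand, Acaa1a, shares 290 of the 2576 exon bases of Myd88, and the strand setting of the counting is not given in the sources used here. The sample records list an Illumina RNA v2 library kit and the publication a stranded protocol for total RNA. It is therefore not known whether reads in those bases were counted for Myd88, for Acaa1a or for neither. Acaa1a itself had 3560 counts, with log2 changes of -0.24 (edgeR adjusted p = 0.0861) and -0.26 (adjusted p = 0.0777) with IL-22 in fl/fl and ΔIEC organoids. Between genotypes it differed by 0.08 (adjusted p = 0.649) untreated and 0.06 (adjusted p = 0.691) with IL-22, and it passed the threshold in none of the 4 comparisons.

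The NOD receptors gave no call in any comparison. Nod1 (ENSMUSG00000038058.14, chromosome 6, minus strand, 54923949 to 54972612) had 8.77, 10.7, 7.25 and 9.10 CPM in untreated and 3.96, 5.38, 8.07 and 8.39 CPM in treated fl/fl cultures. Among ΔIEC cultures the values were 8.49, 8.12, 8.04 and 9.97 CPM untreated and 6.48, 7.10, 9.67 and 11.6 CPM with IL-22. The lines differed within the treated groups. Line 1293 averaged 4.67 CPM and line 1294 8.23 CPM with IL-22, against 9.74 and 8.17 CPM untreated. In ΔIEC organoids line 1290 averaged 6.79 CPM and line 1292 10.6 CPM with IL-22, against 8.30 and 9.01 CPM untreated. The log2 difference with IL-22 was -0.46 (SE 0.23, edgeR adjusted p = 0.143) in fl/fl and 0.03 (SE 0.23, adjusted p = 0.936) in ΔIEC organoids. Leaving out line 1293 brought the fl/fl value to 0.00 (adjusted p = 0.995), and leaving out line 1294 brought it to -1.02 (adjusted p = 0.0348).

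Nod2 (ENSMUSG00000055994.15, chromosome 8, plus strand, 88647315 to 88688474), which recognizes muramyl dipeptide, had 2.92, 4.34, 2.27 and 4.01 CPM in untreated and 5.15, 4.91, 4.69 and 4.49 CPM in treated fl/fl cultures. Values in ΔIEC cultures were 1.65, 3.94, 4.42 and 3.74 CPM untreated and 3.24, 5.11, 5.74 and 8.97 CPM with IL-22. The treated fl/fl cultures were narrowly above the untreated ones, and the ΔIEC groups overlapped. The log2 differences of 0.45 (SE 0.32, edgeR adjusted p = 0.303) in fl/fl and 0.82 (SE 0.32, adjusted p = 0.0629) in ΔIEC organoids did not pass. Counts ranged from 5 to 31 per culture, which limits what could be detected.

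Nlrp6, the most abundant member, fell with IL-22 in both genotypes. Nlrp6 (ENSMUSG00000038745.15, chromosome 7, plus strand, 140920902 to 140929192) had 342, 358, 353 and 383 CPM in untreated and 178, 179, 210 and 185 CPM in treated fl/fl cultures. In ΔIEC cultures it had 327, 333, 296 and 309 CPM untreated and 169, 201, 166 and 174 CPM with IL-22. Every treated culture was below every untreated one, whichever the genotype. The log2 change was -0.93 (SE 0.08, edgeR adjusted p = 3.11e-08) in fl/fl and -0.83 (SE 0.08, adjusted p = 1.41e-07) in ΔIEC organoids, and both calls held under every other setting. The untreated ΔIEC cultures were all slightly below the untreated fl/fl cultures, but the difference of -0.18 (SE 0.08) did not pass (adjusted p = 0.101). With IL-22 the genotypes overlapped (-0.08, SE 0.08, adjusted p = 0.433). The difference between the IL-22 effects was 0.10 (SE 0.11, adjusted p = 0.914).

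**Figure D2:**
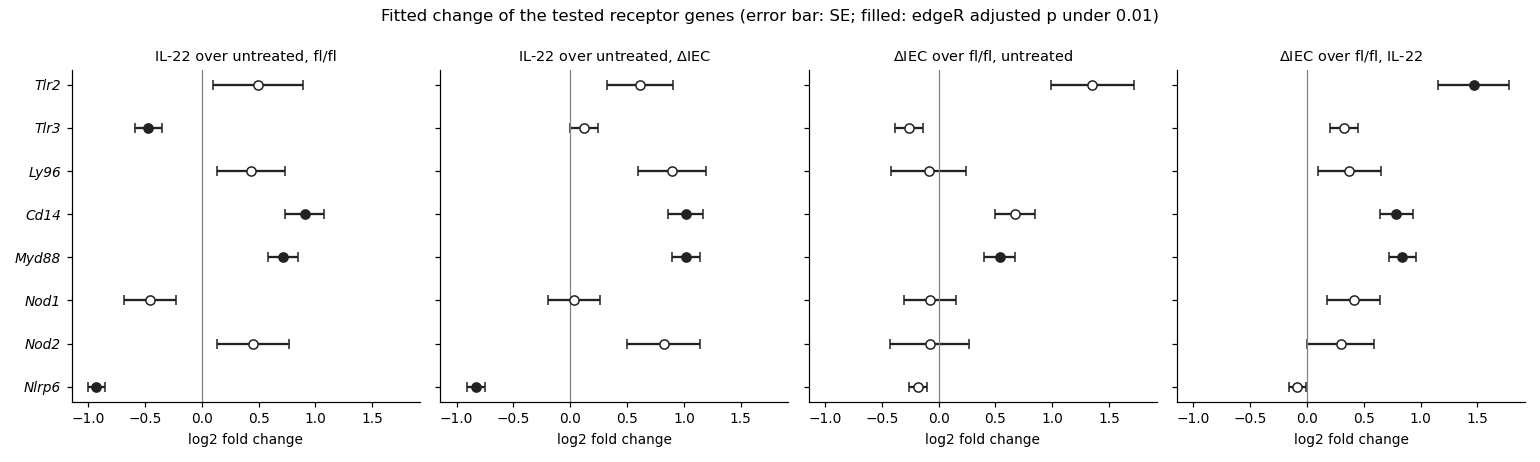
Log2 fold changes (horizontal axis) of the 8 tested genes in 4 comparisons, with SE as error bars and filled points where the edgeR adjusted p was under 0.01. Nlrp6 lies near -0.93 and -0.83 with IL-22, Cd14 and Myd88 lie above 0 in all 4 panels, and Tlr2 lies farthest to the right in both genotype panels.

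Markers of cell types moved with the same comparisons, and their part in the receptor results was not tested. With IL-22, 5 of 7 general epithelial markers were higher in fl/fl and 1 in ΔIEC organoids, with sums of 9393, 8520, 6941 and 7226 CPM untreated and 11683, 12863, 10770 and 10848 CPM treated in fl/fl, and of 6743, 7378, 8470 and 8145 CPM and 8033, 8819, 11499 and 10918 CPM in ΔIEC cultures. Of 6 stem cell markers 2 were lower with IL-22 in fl/fl and 4 in ΔIEC organoids, and of 7 Paneth cell markers 2 were higher in each genotype. Of 7 goblet cell markers 3 were higher and 1 lower in fl/fl and 2 higher and 2 lower in ΔIEC organoids, and 1 enteroendocrine marker of 7 and 1 tuft cell marker (Avil) of the 3 tested were higher in each genotype. Of 8 enterocyte markers, 6 were lower with IL-22 in fl/fl and 4 in ΔIEC organoids. Their summed level was 4123, 3718, 4067 and 3746 CPM in untreated and 1442, 1662, 1249 and 1273 CPM in treated fl/fl cultures, and 4198, 4187, 3955 and 3538 CPM against 1957, 1912, 1245 and 1204 CPM in ΔIEC cultures, with Alpi the most abundant at 914 CPM. This sum fell in the same cultures as Nlrp6. Of 7 Paneth cell markers, 3 were lower in untreated and 5 in IL-22–treated ΔIEC than in fl/fl organoids. Their sum was 7967, 7346, 5885 and 5625 CPM in untreated fl/fl against 3299, 3168, 4156 and 4006 CPM in untreated ΔIEC cultures, and 9555, 8758, 7870 and 7135 CPM against 4599, 4002, 4819 and 4155 CPM with IL-22, with Defa24 the most abundant at 2266 CPM. Of 6 stem cell markers, 3 were higher and 1 lower in untreated ΔIEC, and 3 higher and 2 lower in treated ΔIEC, than in fl/fl organoids, with Olfm4 the most abundant at 238 CPM. Their sum was 545, 558, 747 and 715 CPM in fl/fl against 1162, 1008, 1105 and 1166 CPM in ΔIEC cultures untreated, and 365, 360, 390 and 381 CPM against 578, 441, 514 and 447 CPM with IL-22. Untreated, most of that difference was Olfm4, which averaged 144 CPM in fl/fl and 584 CPM in ΔIEC organoids. With IL-22, Olfm4 averaged 24.3 and 199 CPM, a wider gap than that of the sums (means 374 and 495 CPM). The other stem cell markers together were thus lower in treated ΔIEC organoids. Rnf43 was called lower in ΔIEC at both treatments and Lgr5 with IL-22, whereas Ascl2 and Smoc2 were called higher at both treatments. Of 7 goblet cell markers, 3 were lower in untreated and 4 in treated ΔIEC organoids, with sums of 2657, 2607, 1740 and 1760 CPM in fl/fl against 1326, 1392, 1775 and 1713 CPM untreated, and 2287, 2330, 1726 and 1592 CPM against 842, 866, 1365 and 1147 CPM with IL-22 (most abundant Fcgbp, 865 CPM). Of 7 enteroendocrine markers, 2 were lower in untreated and 3 in treated ΔIEC organoids, with sums of 572, 603, 348 and 368 CPM against 204, 264, 346 and 343 CPM untreated, and 676, 610, 497 and 523 CPM against 230, 243, 459 and 397 CPM with IL-22 (most abundant Chgb, 299 CPM). Of the enterocyte markers, 1 was higher (Fabp2) and 1 lower (Slc5a1) in untreated ΔIEC and 3 were higher in treated ΔIEC than in fl/fl organoids, while the sums above overlapped between the genotypes at both treatments. No marker of these lists was at 0 in every culture. The immune list, which bears on Cd14 and Tlr2 as genes also used by myeloid cells, summed to 14.3, 17.6, 18.1 and 20.6 CPM in untreated and 47.1, 41.1, 45.2 and 38.7 CPM in treated fl/fl cultures. In ΔIEC cultures it summed to 13.7, 14.3, 14.1 and 12 CPM untreated and 25.1, 19.6, 40.5 and 29.5 CPM with IL-22, so that in each genotype every treated culture was above every untreated one. Most of that difference was Ly6g, its most abundant gene, at 0.889 CPM untreated and 21.5 CPM treated in fl/fl and 0.590 and 14.1 CPM in ΔIEC organoids. In all 16 cultures together, the pan-leukocyte marker Ptprc had 5 counts and the macrophage marker Adgre1 had 1, while Csf1r had 491, Cd52 164, Cd68 150 and Itgam 106 counts. Cd68 averaged 2.01 CPM untreated and 4.74 CPM with IL-22 in fl/fl organoids (edgeR adjusted p = 0.0114) and 1.32 and 2.52 CPM in ΔIEC organoids (adjusted p = 0.137). The more abundant Csf1r did not rise, with 9.55 and 9.63 CPM in fl/fl (edgeR adjusted p = 0.990) and 9 and 7.66 CPM in ΔIEC organoids (adjusted p = 0.478).

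The IL-22 effect on the members was not shown to differ between genotypes. In edgeR's interaction test 0 of 8 members passed, where 2 of 12559 genes (0.0159%) did. At an unadjusted p under 0.05 there was 1 member, Tlr3, by edgeR, and likewise 1 by DESeq2 and 1 by limma-voom. Of all 12559 genes, 912 passed that cut by edgeR, 711 by DESeq2 and 1379 by limma-voom. After adjustment, limma-voom also called 0 members. DESeq2 called 0 as well, but its own filter gave an adjusted p to Nlrp6 alone, so that its count says nothing of the other members. The fitted interaction ranged from 0.10 for Nlrp6 to 0.59 for Tlr3, beside a median of 0.03 over all tested genes, and it turned negative for Tlr2, Cd14 and Myd88 when some cultures or lines were left out.

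Across the 16 cultures the members fell into a few patterns, described by Pearson correlation of log2 CPM. These points share lines and treatment groups, so that the correlations include the differences between groups. Cd14 and Myd88 had the highest correlation among the 8 tested members (r = 0.945), and Tlr2 with Cd14 had the next highest positive value (r = 0.799). Nlrp6 ran opposite to Cd14 (r = -0.813) and to Myd88 (r = -0.795). Nod1 had its largest correlations with Tlr3 (r = 0.366) and Nlrp6 (r = 0.362) and was closer to 0 with the others, for example r = 0.0919 with Nod2. Among all tested genes, those most like Nlrp6 were Aldh1b1 (r = 0.976), Ces2g (r = 0.974) and Ces2e (r = 0.974), a dehydrogenase and carboxylesterases. Rnpep (r = 0.975), Psat1 (r = 0.975) and Sec61a1 (r = 0.962) were most like Myd88. Sec61a1 (r = 0.965) was also most like Cd14, followed by Kcne3 (r = 0.963) and Tuba4a (r = 0.961). No gene was as close to Tlr3, whose nearest were Tesk2 (r = 0.770), Ubl5 (r = 0.760) and Slc37a4 (r = 0.744).

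Beyond the 10 members, a list of 66 other genes of these pathways was followed, of which 43 were tested. The list was chosen with earlier results of these data known. Its counts and medians therefore describe these genes and are no test of the pathways. With IL-22, edgeR called 15 of them higher and 1 lower in fl/fl organoids, and 15 higher in ΔIEC organoids. For comparison, the higher share over all tested genes was 10.6% in fl/fl and 9.83% in ΔIEC organoids, and the lower share 10.2% in fl/fl. The counts of the smaller classes are too small to compare with these shares. The median log2 change of each class is given below. Over all tested genes the median with IL-22 was -0.05 in fl/fl and -0.01 in ΔIEC. The sensors of bacteria outside the Toll-like family had medians of 0.63 and 0.16, with 7 and 6 of 13 genes higher. The adaptors and kinases of Toll-like receptors had medians of 0.29 and 0.19, with 5 and 4 of 14 higher. Of the co-factors (medians 0.07 and 0.33), 1 was higher and 1 lower of 4 in fl/fl and 2 were higher in ΔIEC organoids. Of the partners of NOD receptors (medians -0.24 and 0.08) 1 and 2 of 7 were higher, and of the negative regulators (medians 0.14 and 0.38) 1 and 1 of 4. Ripk2 was the NOD partner higher in both genotypes, by 1.03 (edgeR adjusted p = 0.00752) in fl/fl. In ΔIEC organoids its change of 0.97 was just inside the threshold (adjusted p = 0.00998). Of the other Toll-like receptors Tlr1 alone was tested, and it missed the threshold with IL-22 at adjusted p = 0.113 and 0.0147.

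Tifa, Alpk1 and Lbp had the largest changes of these genes. Tifa, which relays the signal of the kinase ALPK1, had 6.72, 9.70, 9.52 and 10.4 CPM in untreated and 128, 136, 186 and 193 CPM in treated fl/fl cultures. The ΔIEC cultures had 10.8, 4.68, 10.1 and 8.72 CPM untreated and 204, 173, 158 and 150 CPM with IL-22. Its log2 change was 4.14 (SE 0.20, edgeR adjusted p = 5.49e-12) in fl/fl and 4.33 (SE 0.20, adjusted p = 3.80e-12) in ΔIEC organoids. Alpk1, which senses heptose sugars of Gram-negative bacteria, rose by 3.37 (SE 0.27) in fl/fl and by 2.78 (SE 0.27, adjusted p = 1.69e-07) in ΔIEC organoids. Lbp, whose product carries lipopolysaccharide to CD14, had 0 counts in the untreated fl/fl cultures and 5, 10, 12 and 5 counts in the treated ones, which is 9.16 times a floor of 3 counts over the untreated group (exact 95% lower limit of the ratio 7.03). Among ΔIEC cultures the values were 1, 1, 1 and 2 counts untreated and 11, 25, 19 and 34 counts with IL-22, a ratio of 18.4 (95% exact interval 7.61 to 58.1, counting error only). Next to Myd88, its bridging adaptor Tirap rose in both genotypes (1.06 in ΔIEC organoids, adjusted p = 4.79e-06), as did the kinase gene Irak2 (0.58 in fl/fl, 0.84 in ΔIEC), the kinase-binding genes Tab2 (0.47, 0.80) and Tab3 (0.70, 0.58) and the inhibitor gene Tnfaip3 (1.10, 1.26). Casp4 (1.51, 1.33), Pglyrp1 (1.315, 1.338), Nlrc4 (0.63, 0.84) and Naip1 (0.93, 0.95) were higher too. Related genes in the same class did not pass, with Casp1 at -0.43 (adjusted p = 0.0167) and 0.02, Naip2 at -0.15 and 0.16, Naip5 at -0.27 and 0.03 and Naip6 at -0.08 and -0.47 (adjusted p = 0.0186), and Naip genes are close copies among which reads may be misassigned. Cnpy3, a chaperone of Toll-like receptors, was the 1 gene lower with IL-22 in fl/fl organoids (-0.50, adjusted p = 0.00515), beside -0.20 (adjusted p = 0.285) in ΔIEC and an interaction of 0.31 (adjusted p = 0.779).

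**Figure D3:**
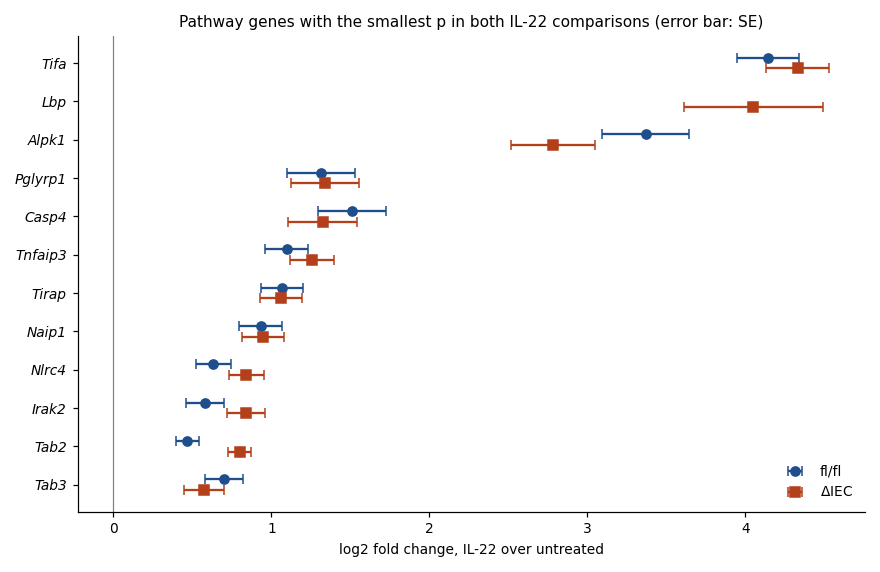
Log2 fold change with IL-22 (horizontal axis) of the pathway genes with the smallest p-values in each genotype, with SE as error bars, fl/fl as circles and ΔIEC as squares. Tifa, Lbp and Alpk1 lie farthest from 0, and Lbp is drawn for ΔIEC alone because its untreated fl/fl counts were all 0.

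Between IL-22–treated ΔIEC and fl/fl organoids, 3 of the 43 genes were higher and 3 lower, beside 9.91% and 9.84% of all tested genes. In untreated organoids none passed by edgeR, the smallest adjusted p being that of Irak4 (0.0140), beside 3.78% higher and 5.98% lower of all tested genes. With IL-22, Lbp (1.73, edgeR adjusted p = 5.60e-04), Tlr1 (1.31, adjusted p = 0.00209) and the chaperone Hsp90b1 (0.38, adjusted p = 0.00517) were higher in ΔIEC. Nlrp10 (-2.31, SE 0.36, adjusted p = 9.75e-05), Naip6 (-0.71, adjusted p = 6.96e-04) and Ticam1 (-0.54, adjusted p = 0.00194) were lower. Ticam1 encodes TRIF, the adaptor of TLR3. Nlrp10 had 11.9, 12.9, 6.57 and 6.89 CPM in treated fl/fl against 0.405, 1.42, 2.72 and 2.60 CPM in treated ΔIEC cultures. IL-22 raised it in fl/fl (1.25, adjusted p = 0.00444), the ΔIEC value was -0.65 (adjusted p = 0.287), and the interaction did not pass (-1.91, adjusted p = 0.350).

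Promoter sequence was read for 7 of the 10 members, from 250 bases before to 50 bases after the RefSeq start in GRCm38.p6. The promoter set used held no entry for Tlr4, Ly96 and Cd14, so that Cd14, which was called with IL-22, has no window here. It was searched on both strands for TTCNNNGAA, the pattern bound by STAT proteins, for GAAANNGAA, an interferon response pattern, and for the NF-κB consensus. The 3 windows shown belong to members past the threshold with IL-22, with matches in capitals. Among the other 4 of these 7 members, which have no IL-22 call, 1 of the 2 Nod1 promoters also has a STAT match (193 bases before the start), Tlr2 has 3 NF-κB matches, and Tlr5 and Nod2 have none. Myd88 (chr9:119339969-119340268, minus strand) has a STAT match 46 bases and an interferon response match 40 bases before the start, which share 3 bases, and its window also lies within the span of Acaa1a. The RefSeq starts used for Myd88 and Tlr3 lie inside the GENCODE spans of these genes given above, not at their ends.

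Myd88: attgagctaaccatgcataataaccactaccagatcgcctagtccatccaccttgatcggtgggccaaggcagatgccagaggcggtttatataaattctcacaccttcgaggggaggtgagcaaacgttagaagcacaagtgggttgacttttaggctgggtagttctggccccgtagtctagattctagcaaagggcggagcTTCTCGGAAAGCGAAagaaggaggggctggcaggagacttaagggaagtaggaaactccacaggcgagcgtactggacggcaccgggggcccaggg

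Tlr3 (chr8:45410331-45410630, minus strand) has an NF-κB match 211 bases before the start and no match to the other patterns.

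Tlr3: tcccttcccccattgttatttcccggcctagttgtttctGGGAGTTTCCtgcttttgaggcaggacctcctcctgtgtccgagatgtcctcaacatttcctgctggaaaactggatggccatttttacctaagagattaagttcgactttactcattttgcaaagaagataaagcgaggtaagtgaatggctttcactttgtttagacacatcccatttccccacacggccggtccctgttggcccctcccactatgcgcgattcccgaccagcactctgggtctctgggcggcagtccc

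Nlrp6 (chr7:140920652-140920951, plus strand) has no match to any of them.

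Nlrp6: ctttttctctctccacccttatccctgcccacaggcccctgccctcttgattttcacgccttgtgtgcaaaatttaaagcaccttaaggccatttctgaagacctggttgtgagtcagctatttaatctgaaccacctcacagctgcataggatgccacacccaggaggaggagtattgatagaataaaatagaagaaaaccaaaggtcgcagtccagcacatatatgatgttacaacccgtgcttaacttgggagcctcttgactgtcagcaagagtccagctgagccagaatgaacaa

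Of all 32851 promoters of the same length, 8.30% have a STAT match, 8.56% an interferon response match and 8.46% an NF-κB match. A match describes the sequence and says nothing on whether a protein binds there.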

How the data were processed

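The gene counts deposited by the authors were used as they are (reads of 150 nt, trimmed with cutadapt, aligned with TopHat2 to GRCm38 and counted with HTSeq, versions not given). The 5 HTSeq summary lines were left out. They held 61.7% to 63.7% of the entries of a culture, so that 36.27% to 38.33% lay on genes, with a median of 3499276 counts. Genes were named by matching identifiers to GENCODE mouse release 21, which held 49326 (99.5%) of them, and each named gene is the 1 entry with that identifier. Genes were kept by filterByExpr, scaled by TMM and fitted with 1 mean per group by edgeR 4.0.16 quasi-likelihood in R 4.3.3. Each test was two-sided, and a call needed a Benjamini-Hochberg adjusted p under 0.01 among the 12559 genes. The SE of a log2 fold change is its absolute value over the square root of F. CPM use TMM-scaled library sizes, log2 CPM add a prior count of 2, and TPM use the union of exons in release 21. After removal of group means, untreated and treated cultures of 1 line correlated across genes at r = 0.263 to 0.438 in fl/fl and 0.0563 to 0.321 in ΔIEC, and those of different lines at -0.435 to -0.218 and -0.352 to -0.0779. The deviations of a group sum to 0, so that a positive value within lines makes the value between lines negative. Alternatives were DESeq2 1.42.0, limma 3.58.1 (voom with a correlation within lines of 0.261), RLE scaling, other filters, fits of the compared groups only, cultures of a line summed, the line as a block, an adjusted p under 0.05, and leaving out each culture or line. Marker lists of cell types and lists of pathway genes were taken from general knowledge. The members and lists were chosen with earlier results of these data known. Ratios of low counts have exact binomial intervals.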

Additional observations from a re-analysis of the deposited data

Results flagged for a closer look

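In 1 of the 40 combinations of gene and group, a culture lay far from the other 3. Tlr2 had 5.81 CPM in untreated ΔIEC replicate 4, above the 3.22 to 3.54 CPM of the others, and the gap was 0.877 of the range of the group, beyond Dixon's 95% critical value. Chance alone gives about 1 such case in 20 groups.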

How the results depend on the processing

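Of the log2 fold changes of the members under all settings, 767 kept their direction and side of the threshold, 39 lost and 5 gained the threshold, and 21 changed sign. Gains by Tlr2 and Cd14 (genotypes untreated), Ly96 (IL-22 in ΔIEC) and Tlr3 (genotypes with IL-22) came from the same fit at adjusted p under 0.05. That setting can only gain calls. Tlr2 also gained without untreated fl/fl replicate 1. The cause of the other changes was not tested. Tlr2, Tlr4, Tlr5, Ly96 and Nod2 had at most 255 counts each over all cultures, and depth limits what can be detected there. With the counts of a line summed, 1 member was called with IL-22 in fl/fl (4 in the fit used in the text) and 0 between genotypes with IL-22 (3 in the text). Over all genes, 543 and 188 of 13871 were called there, beside 2608 and 2481 of 12559 in the text. In fl/fl, 1 member was called with IL-22 without line 1293 (1627 of 12852 genes) and 2 without line 1294 (1083 of 12785 genes). Without line 1290, 1 member was called between genotypes with IL-22 (950 of 12876 genes). In untreated organoids the genotype call (1) became 3 at adjusted p under 0.05. It became 0 with at least 10 counts in every culture, with the compared groups only, with summed cultures, with DESeq2 and with limma-voom. Of all genes, 1226 of 12559 were called there in the text, 2559 at adjusted p under 0.05 and 1113 of 10329 with at least 10 counts. The compared groups only gave 1139 of 12143 genes, DESeq2 1405 of 12559 and limma-voom 777 of 12559. Leaving out a culture or line gave from 0 to 1 member and from 445 to 1639 genes. With the organoid line as a block, the same 4 members in fl/fl and 3 in ΔIEC were called and 0 in the interaction, while all genes called went from 2608 to 3837, from 2195 to 3198 and from 2 to 56. In these comparisons it changed no call of a member, and it was not run between genotypes, in which the lines are nested. Summing the cultures of a line left 543, 635, 10 and 188 genes in the 4 comparisons and 0 in the interaction (378 at unadjusted p under 0.05). Counts of all called genes differed by over 1.5 times in 47 cases and stayed closer in 59. With at least 10 counts in every culture, Tlr2, Ly96 and Nod2 were not tested. With the longest transcript as gene length, 14 mean TPM values of the members moved by more than 1 SD and 26 did not. Signs changed only in effects that were past the threshold with neither sign. Leaving out a culture or line, the interaction ranged from -0.434 to 0.374 for Tlr2 (-0.00828 with limma-voom, -0.123 without line 1293), from -0.0390 to 0.204 for Cd14 and from -0.00276 to 0.528 for Myd88 (both lowest without line 1290). The untreated genotype difference ranged from -0.383 to 0.126 for Ly96 (also 0.0426 without line 1292, 0.0671 and 0.00224 without ΔIEC replicates 2 and 4), from -0.185 to 0.0427 for Nod1 (0.0206 without fl/fl replicate 2) and from -0.304 to 0.217 for Nod2 (0.202 without ΔIEC replicate 1, 0.0625 without fl/fl replicate 2). With IL-22 the genotype difference of Nod2 ranged from -0.186 to 0.613. The effect of IL-22 on Nod1 ranged from -1.02 to 0.00465 in fl/fl and from -0.315 to 0.241 in ΔIEC organoids (-0.0153 and -0.137 without treated replicates 3 and 4, -0.000139 with limma-voom, -0.0130 with the block).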
